A study of Mus musculus with 15 samples.

Results

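The 9 mesenchymal and EMT transcription factors described here are Twist1, Twist2, Snai1, Snai2, Zeb1, Zeb2, Prrx1, Prrx2 and Tbx18. They were chosen as a list of names with earlier results of these data known, but with no threshold on their values. All 9 had a row, 1 transcript each, among the 12089 transcripts of the expression table. RNA-seq was carried out on mouse dental mesenchymal cells (mDMCs) from the molar tooth germs of E14.5 embryos of the ICR strain, an outbred stock. The dental epithelium had been removed with dispase, and the mesenchyme was dispersed into single cells with trypsin. Freshly isolated mDMCs (0 h, 3 libraries) were compared with mDMCs cultured in FBS-supplemented DMEM for 12 h (2 libraries), 24 h (3), 36 h (3) and 48 h (3). A single library of dental mesenchymal tissue was given beside them and entered no test. The labels name no transgene, deletion or drug in any group. The labels do not say whether replicates came from separate litters or cultures, so the p-values measure the spread between these libraries, which may be technical.

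Epithelial to mesenchymal transition, EMT, is the program by which cells give up epithelial junctions and take on a migratory, mesenchymal state. The Snail proteins (Snai1, Snai2) and the Zeb proteins are zinc finger repressors that bind E-box sequences in epithelial genes, and the Twist proteins are basic helix-loop-helix (bHLH) factors that bind E-boxes as dimers. Prrx1 and Prrx2 are paired-related homeobox factors of the craniofacial and limb mesenchyme, and Tbx18 is a T-box factor of several embryonic mesenchymes. Tooth mesenchyme comes from the neural crest, whose cells have passed through an EMT, and Twist1 is required in the mouse for the cranial neural crest to form facial mesenchyme.

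Values are expression scores, whole numbers on a scale shared by all libraries, on which each library has its median at 721 and its largest value at 127101. Library totals lay between 21357605 and 21365980, the depth of sequencing is unknown, and no counting interval can be given. Changes are differences of log2(score + 1), tested in limma across 12079 transcripts, and "adjusted p" is the Benjamini-Hochberg value over all of them. The 4 comparisons with 0 h share the same 3 freshly isolated libraries, so they are not independent of each other. In bulk samples, fewer cells of a type and less RNA per cell cannot be told apart.

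Several libraries stood apart in markers of other cell types. The summed score of the 11 dental mesenchyme markers, all with a row, was 41333 to 47341 at 0 h, 36095 in tissue and 18419 to 23246 at 48 h, with 7 members lower and 1 (Bmp4, 1326 to 1580 at 0 h and 3906 to 5154 at 48 h) higher at 48 h. Of 11 epithelial markers, 7 had a row, and Krt19, Cldn7, Esrp1 and Grhl2 had none. Their summed score was 13092 in 0 h replicate 1, against 1354 in the lowest 0 h library, 4814 in tissue and 305 to 1135 at 48 h. Endothelial markers (11 of 14 with a row, without Sox17, Sox18 and Erg) summed to 13191 to 16105 at 0 h, 18440 in tissue and 6476 to 8605 at 48 h, but the members went different ways. Cldn5 was listed at 0 in every cultured library except 12 h replicate 2 (a score of 3), and Pecam1 was 1953 to 2544 at 0 h and 7 to 18 at 48 h. Cdh5 was likewise 1005 to 1610 and then 2 to 5, and Tie1 was 1148 to 1439 and then 0 to 1. Flt1 was higher at 48 h (1386 to 2608, against 677 to 912), as was Ets1 (4447 to 5013, against 2220 to 3133). Macrophage markers (6 of 12 with a row) summed to 1417 to 2217 at 0 h and 528 to 871 at 48 h, with 3422 in tissue, and red cell markers (7 of 11) to 97833 to 150838 and then 51 to 168. Muscle markers (5 of 7 with a row, without Myod1 and Myf5) summed to 350 to 1296 at 0 h, 515 to 2725 at 24 h, 617 to 3681 at 36 h and 824 to 1805 at 48 h, with replicate 3 the lowest each time, and to 6373 in tissue. Mural markers (8 of 8) summed to 13920 to 16978 at 0 h, 13575 in tissue and 15934 to 18329 at 48 h, with 4 members lower and 2 higher. Rgs5, Kcnj8 and Abcc9 were 1908 to 2515, 141 to 368 and 217 to 297 at 0 h and no more than 170, 9 and 8 at 48 h, whereas Cspg4 and Mcam were higher in all 48 h libraries. Glial and neuronal markers (4 of 11 with a row, Sox10 and Foxd3 among those without) summed to 421 to 1035 at 0 h, 1054 in tissue and 665 to 1980 at 48 h, with the neuronal Tubb3 and Stmn2 higher and the glial Erbb3 lower (155 to 545 at 0 h, 43 to 61 at 48 h). The part of these cell types in the changes of the 9 factors was not tested.

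After 12 h in culture, Snai1, Snai2 and Prrx2 had risen and Twist1, Twist2 and Zeb2 had fallen, while Zeb1, Prrx1 and Tbx18 did not pass the test. Over all transcripts, 29.9% were called higher and 28.3% lower in this comparison. At 24 h, 1 factor was higher (Snai1) and 5 were lower (Twist1, Twist2, Zeb1, Zeb2 and Tbx18), against 35% and 31.8% of all transcripts. At 36 h none was higher and 3 were lower (Twist1, Twist2 and Zeb2), against 36% and 34%. The same 3 factors were lower at 48 h and none was higher, against 37.1% and 34%. The number of factors called was thus near or below the share of all transcripts, apart from the 5 lower at 24 h. The median change of the 9 factors was, on the log2 scale, -0.32 after 12 h, -0.53 after 24 h, -0.43 after 36 h and -0.34 after 48 h, and the median over all transcripts lay between 0.02 and 0.03.

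**Figure D1:**
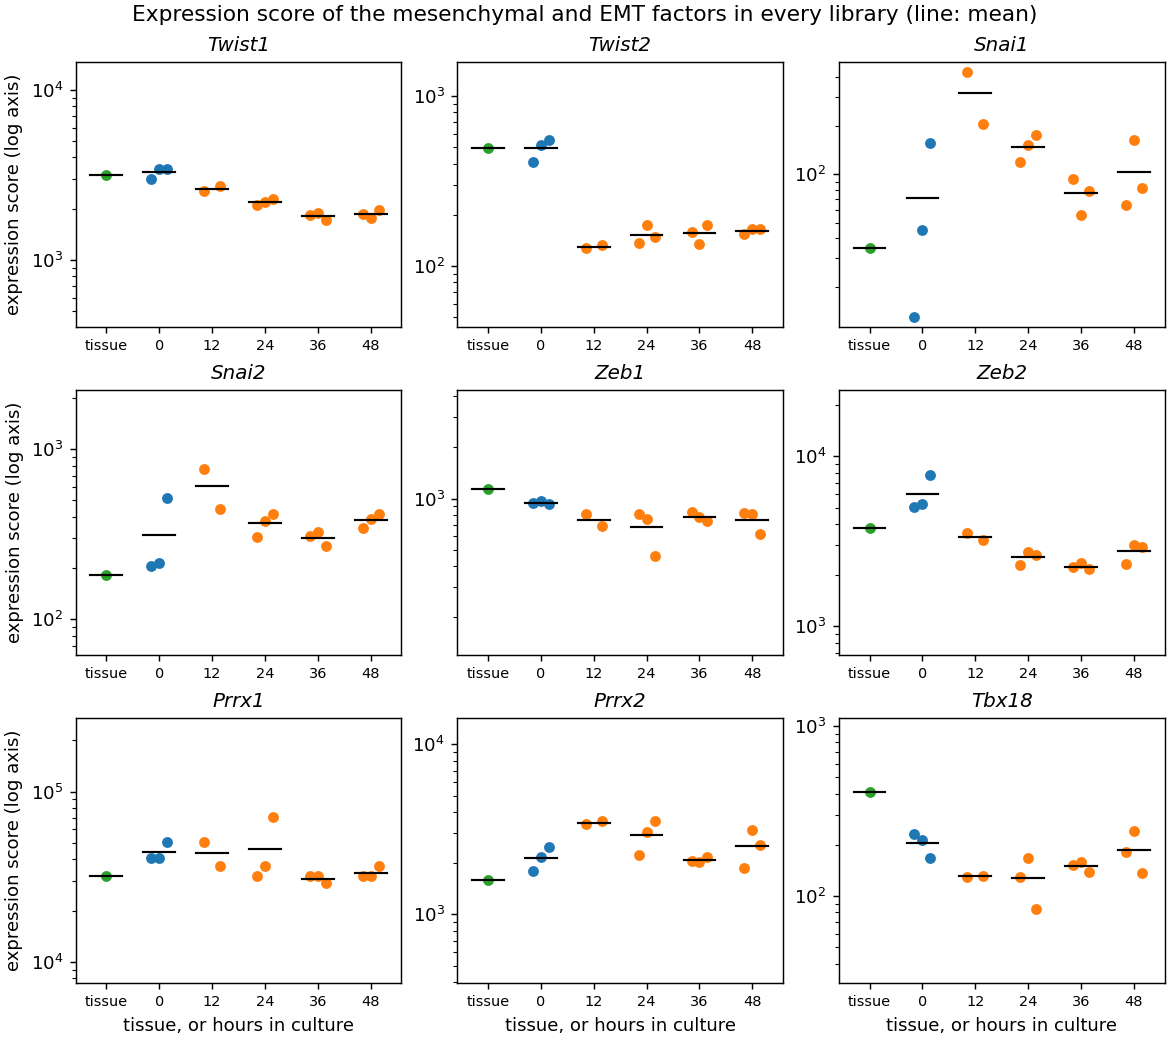
Expression score (log axis) of each of the 9 factors in every library, against hours in culture, with the single tissue library at the left; points are libraries, lines are group means. All cultured libraries lie below all 0 h libraries for Twist1, Twist2, Zeb1 and Zeb2, and Snai1 is highest in the 12 h libraries.

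Twist1, a bHLH factor of cranial neural crest and mesenchyme, was lower than at 0 h at all 4 culture times. Its score was 3003, 3401 and 3423 in the 0 h libraries, 2540 and 2701 at 12 h, and 2089, 2174 and 2276 at 24 h. It was 1846, 1890 and 1718 at 36 h and 1857, 1762 and 1974 at 48 h. The libraries of 0, 12, 24 and 36 h did not overlap between these times, and those of 36 and 48 h did. The log2 change from 0 h was -0.32 ± 0.086 (SE, n = 3 and 2, limma adjusted p = 0.00628) at 12 h. By 36 h it had fallen by 0.85 ± 0.077 (n = 3 and 3, limma adjusted p = 6.25e-07), that is 1.8-fold, and at 48 h the change was -0.81 ± 0.077 (limma adjusted p = 8.43e-07). The call at 12 h was lost without 12 h replicate 1 (-0.28, limma adjusted p = 0.0528), and the step from 12 to 24 h did not pass the test (-0.27, limma adjusted p = 0.0777). Tissue, at 3165, lay within the 0 h range.

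Twist2, the close relative of Twist1 expressed in dermal and craniofacial mesenchyme, had fallen by 12 h, the first culture time. The 0 h libraries held 411, 516 and 547, and the 12 h libraries 127 and 133. Later libraries held 136, 174 and 148 at 24 h, then 158, 134 and 174 at 36 h, and finally 155, 164 and 164 at 48 h. Every cultured library was far below the lowest 0 h library, both 12 h libraries were below all later ones, and the times from 24 h on overlapped each other. The change was -1.90 ± 0.163 (SE, n = 3 and 2, limma adjusted p = 8.66e-07) at 12 h, a 3.73-fold lower score, and -1.59 ± 0.146 (n = 3 and 3, limma adjusted p = 6.53e-07) at 48 h. In tissue the score was 495, again within the 0 h range.

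The upstream windows of the Twist genes are shown because both factors fell and because their starts are those of the transcripts listed for them. They are the 250 bases before the start in RefSeq (GRCm38.p6), read 5′ to 3′ on the gene's strand.
Twist1, chr12:33957421-33957670, plus strand: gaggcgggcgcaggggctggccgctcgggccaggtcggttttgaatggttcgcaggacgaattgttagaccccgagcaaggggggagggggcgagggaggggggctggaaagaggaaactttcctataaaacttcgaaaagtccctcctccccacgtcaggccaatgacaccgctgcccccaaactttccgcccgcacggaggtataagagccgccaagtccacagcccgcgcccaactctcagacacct
Twist2, chr1:91801211-91801460, plus strand: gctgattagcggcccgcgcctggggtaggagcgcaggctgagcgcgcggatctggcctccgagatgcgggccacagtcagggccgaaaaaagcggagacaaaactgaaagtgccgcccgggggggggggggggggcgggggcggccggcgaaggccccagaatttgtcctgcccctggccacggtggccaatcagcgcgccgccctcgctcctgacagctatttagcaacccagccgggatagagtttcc
Capitals would mark an E-box (CANNTG on either strand), and neither window holds one, whereas 66.2% of all 32851 promoter windows of this length do. Both hold CCAAT, at -89 to -85 before the Twist1 start and at -63 to -59 before the Twist2 start. That box or its reverse complement ATTGG occurred in 33.8% of all windows. The Twist1 window also holds TATAAA at -126 to -121, a motif (either strand) found in 12.4% of windows. These matches are descriptions of the letters and not of bound sites.

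Snai1, the Snail repressor that rises early in many EMT settings, was low and variable at 0 h and had risen by 12 h. Its score was 13, 45 and 156 at 0 h, then 431 and 204 after 12 h, and 119, 151 and 175 after 24 h. At 36 h it was 93, 56 and 79, and at 48 h 64, 164 and 82. Both 12 h libraries were above all others, and from 24 h on the cultured libraries overlapped the 0 h libraries. The change was +2.68 ± 0.742 (SE, n = 3 and 2, limma adjusted p = 0.00773) at 12 h and +1.66 ± 0.664 (n = 3 and 3, limma adjusted p = 0.041) at 24 h. At 36 and 48 h it was +0.70 ± 0.664 and +1.05 ± 0.664 (limma adjusted p = 0.365 and 0.175).

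The Snai1 values differed widely between the 0 h libraries, and the calls moved with them. The lowest value, 13, was that of 0 h replicate 1, which also held the high epithelial sum given above. Without this library the 12 h change was +1.81 (limma adjusted p = 0.0179) and the 24 h change +0.80 (limma adjusted p = 0.198), while the changes at 36 and 48 h were -0.17 and +0.18 and passed no test. The highest 0 h value, 156, was that of replicate 3. This library was the lowest at 0 h in the muscle, endothelial, macrophage, and glial and neuronal sums, and the highest in the dental mesenchyme and mural sums. Without it Snai1 was called higher at all 4 times, by 3.55, 2.54, 1.57 and 1.92 in time order on the log2 scale (limma adjusted p = 0.00581 at 48 h). The 12 h call was lost without 12 h replicate 1 (+2.14, limma adjusted p = 0.0808). The 24 h call was also lost without 0 h replicate 2 (+1.65, limma adjusted p = 0.0827) and without 24 h replicate 1, 2 or 3 (limma adjusted p = 0.0566, 0.0859 and 0.1).

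The upstream window of Snai1 is shown because it is the factor with the largest rise and because its window holds an E-box of the kind bound by Snail and Zeb proteins. It is taken from the same RefSeq set and read as above.
Snai1, chr2:167537945-167538194, plus strand: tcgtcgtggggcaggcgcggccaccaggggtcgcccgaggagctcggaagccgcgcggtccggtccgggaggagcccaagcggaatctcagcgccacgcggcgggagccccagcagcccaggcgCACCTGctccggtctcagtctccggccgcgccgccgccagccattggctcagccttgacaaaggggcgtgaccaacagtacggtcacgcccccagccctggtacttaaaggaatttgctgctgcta
Capitals mark the only E-box, CACCTG, at -126 to -121 before the start. CACCTG or its reverse complement CAGGTG occurred in 17.2% of all windows, and every such match is also a match to CANNTG. The CCAAT box lies on the other strand, as ATTGG, at -84 to -80.

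Snai2, known as Slug, a marker of the emigrating neural crest, was also higher at 12 h. It measured 206, 215 and 520 at 0 h, then 762 and 448 after 12 h, and 306, 376 and 417 after 24 h. Scores were 310, 326 and 268 at 36 h and 342, 387 and 415 at 48 h. The third 0 h library was above one of the 12 h libraries and above every later library, so 0 h overlapped all cultured times. The change at 12 h was +1.04 ± 0.337 (SE, n = 3 and 2, limma adjusted p = 0.0184), 2.05-fold, and the later changes did not pass the test (+0.35, +0.08 and +0.42, limma adjusted p = 0.319, 0.83 and 0.232). Without 0 h replicate 3, Snai2 was called higher at 24 h (+0.79, limma adjusted p = 0.00515), 36 h (+0.51, limma adjusted p = 0.0425) and 48 h (+0.85, limma adjusted p = 0.0029) as well. Without 0 h replicate 1 these changes were +0.12, -0.16 and +0.18, none of which passed. The 12 h call was lost without 0 h replicate 1 (+0.80, limma adjusted p = 0.0664), without 0 h replicate 2 (+0.83, limma adjusted p = 0.0688) and without 12 h replicate 1 (+0.65, limma adjusted p = 0.203). It was also lost in a fit of the 0 and 12 h libraries alone, for Snai2 (limma adjusted p = 0.115) and for Snai1 (limma adjusted p = 0.0674).

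Zeb2, a zinc finger and homeodomain repressor of neural crest cells, fell by over 2-fold from 24 h on. The 0 h libraries held 5039, 5218 and 7724, followed by 3535 and 3205 at 12 h and 2291, 2731 and 2627 at 24 h. They held 2237, 2347 and 2162 at 36 h and 2322, 3010 and 2942 at 48 h. Every cultured library was below every 0 h library, and both 12 h libraries were above all later ones. The change was -0.80 ± 0.168 (SE, n = 3 and 2, limma adjusted p = 0.00122) at 12 h, -1.39 (n = 3 and 3, limma adjusted p = 3.14e-06) at 36 h and -1.10 ± 0.15 (limma adjusted p = 2.4e-05) at 48 h. Tissue, at 3778, was below the 0 h libraries and above the cultured ones.

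Zeb1, its relative, was called lower at 24 h. Scores were 940, 968 and 930 at 0 h, then 810 and 687 after 12 h, and 815, 758 and 459 after 24 h. They were 837, 778 and 733 at 36 h and 824, 812 and 621 at 48 h. All 11 cultured libraries were below all 3 freshly isolated ones, by a small margin, and cultured times overlapped each other. The change was -0.53 ± 0.182 (SE, n = 3 and 3, limma adjusted p = 0.022) at 24 h, and the changes at the other times lay between -0.34 and -0.28 (limma adjusted p = 0.11 to 0.195). The 24 h call was lost without 24 h replicate 3, the library at 459 (-0.27, limma adjusted p = 0.0877), and without 0 h replicate 2 (-0.51, limma adjusted p = 0.0558). Of the 24 h libraries, replicate 3 was the lowest in the muscle, endothelial, macrophage and mural sums. It was the highest in the dental mesenchyme, red cell, and glial and neuronal sums. A fit of the compared times alone lost the 24 h call too (limma adjusted p = 0.0599). It called the changes at 36 h and at 48 h instead (limma adjusted p = 0.0478 at 48 h). Tissue held 1142, above all mDMC libraries.

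Over all transcripts, 22.6% had every cultured library below every 0 h library and 24.6% had every cultured library above. Among the 9 factors, 4 were of the first kind (Twist1, Twist2, Zeb1 and Zeb2) and none of the second.

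Prrx1, a homeobox factor widely used to mark craniofacial and limb mesenchyme, had the highest scores of the 9 and was not called at any time. It had scores of 40667, 40667 and 50479 at 0 h, then 50479 and 36409 after 12 h, and 31853, 36409 and 70675 after 24 h. At 36 h they were 31853, 31853 and 28843, at 48 h 31853, 31853 and 36409, and in tissue 31853. With 6 distinct values over 15 libraries, and a rank from the top of 15 to 65, the score of Prrx1 moved on the coarse top steps of the scale. The 0 h libraries overlapped those of 12 and 24 h and lay above all of 36 and 48 h. The change was -0.50 ± 0.242 (SE, n = 3 and 3, limma adjusted p = 0.0794) at 36 h and -0.39 ± 0.242 (limma adjusted p = 0.163) at 48 h. A fit of the compared times alone called it lower at 48 h (limma adjusted p = 0.028), and 2 of 23 alternatives called it lower at each of 36 and 48 h.

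Prrx2, expressed with Prrx1 in the same mesenchymes, rose at 12 h. The scores at 0 h were 1807, 2166 and 2491, those at 12 h were 3403 and 3531, and those at 24 h were 2234, 3065 and 3531. At 36 h they were 2049, 2032 and 2189, and at 48 h 1878, 3131 and 2573. Only the 12 h libraries lay outside the 0 h range altogether. The change at 12 h was +0.70 ± 0.211 (SE, n = 3 and 2, limma adjusted p = 0.0125), and those at 24, 36 and 48 h were +0.44, -0.03 and +0.21 (limma adjusted p = 0.0567, 0.888 and 0.332). The 12 h call was lost without 12 h replicate 2 (+0.67, limma adjusted p = 0.0621), and the 24 h change was called without 24 h replicate 1 (+0.62, limma adjusted p = 0.0105) and without 0 h replicate 3 (+0.55, limma adjusted p = 0.0358).

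Tbx18, with Snai1 the lowest of the factors at 0 h in score per kilobase of transcript, was called lower at 24 h. It measured 231, 214 and 167 at 0 h, then 130 and 131 after 12 h, and 130, 168 and 84 after 24 h. The values were 153, 158 and 139 at 36 h and 182, 241 and 136 at 48 h. The libraries of 12 and 36 h were below all 0 h libraries, and those of 24 and 48 h overlapped them. The change was -0.72 ± 0.249 (SE, n = 3 and 3, limma adjusted p = 0.0216) at 24 h and -0.16 (limma adjusted p = 0.59) at 48 h. At 36 h the change was -0.43 (limma adjusted p = 0.14), which 2 of 23 alternatives called lower. The 12 h change was -0.63 ± 0.278 (n = 3 and 2, limma adjusted p = 0.0701), which 4 of 23 alternatives called lower, among them the fit without 0 h replicate 3 (-0.76, limma adjusted p = 0.0456). The 24 h call was lost without 24 h replicate 3 (-0.45, limma adjusted p = 0.105), the library whose marker sums stood apart as described for Zeb1. It was also lost without 0 h replicate 1 (-0.62, limma adjusted p = 0.0709), without 0 h replicate 2 (-0.68, limma adjusted p = 0.0597) and in a fit of the compared times alone. In tissue, which held the highest muscle, endothelial and macrophage sums, the score was 409, above all mDMC libraries, as was that of Zeb1.

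**Figure D2:**
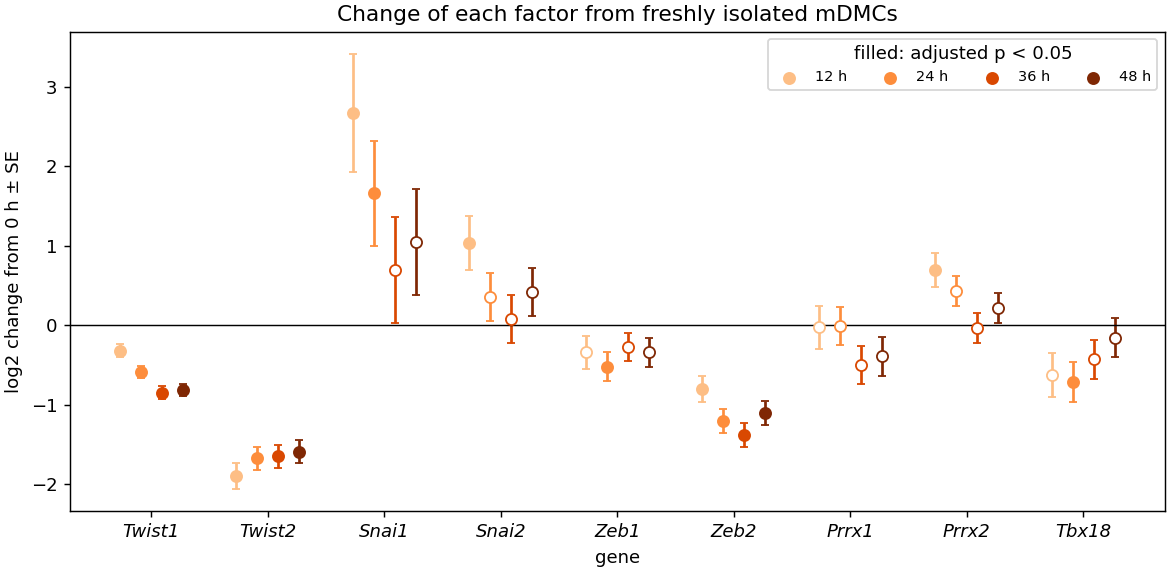
Log2 change of each factor from the 0 h libraries at 12, 24, 36 and 48 h, with bars of 1 SE from the limma fit; filled points have an adjusted p below 0.05. Twist1, Twist2 and Zeb2 are filled at all 4 times, Snai1 at 12 and 24 h, Snai2 and Prrx2 at 12 h, and Zeb1 and Tbx18 at 24 h.

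After 12 h, few further steps passed the test. From 12 to 24 h, limma called no factor (2 at an unadjusted p below 0.05), against 4.59% of all transcripts called higher and 3.67% lower. From 24 to 36 h, Twist1 alone was lower, at -0.26 ± 0.077 (SE, n = 3 and 3, limma adjusted p = 0.0315), against 10% higher and 9.64% lower of all transcripts. This call was lost without 24 h replicate 2 or 3 or without any one of the 36 h libraries (limma adjusted p = 0.0637 to 0.116). The deviations of same-numbered libraries of 24 and 36 h were weakly correlated (0.127 to 0.165). With the replicate number as a block Prrx2 was lower too, so that 2 factors were called (Prrx2 -0.47, limma adjusted p = 0.0973 without and 0.0339 with the block). The block called 2495 of all 12079 transcripts in either direction. Without 24 h replicate 1 Prrx2 was likewise called (-0.66, limma adjusted p = 0.0271). From 36 to 48 h limma called no factor (0 at an unadjusted p below 0.05), against 0% of all transcripts higher and 0.0248% lower.

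Across conditions, the mean score of Twist1 was ordered 0 h, tissue, 12 h, 24 h, 48 h and 36 h, and only the pairs of 0 h with tissue and of 48 h with 36 h overlapped. Zeb2 had the order 0 h, tissue, 12 h, 48 h, 24 h and 36 h, with overlap between the last 3 neighbours. In Twist2, tissue and 0 h came first without differing beyond the 0 h range, and the rest followed far below. Snai1 and Snai2 were both highest at 12 h and lowest in tissue, at 35 and 181. For Prrx1 every neighbour in the order overlapped.

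Set per kilobase of transcript, the factors spanned a wide range at 0 h. Whether the scores had already been adjusted for transcript length is not known, so this order may differ from that of transcript abundance. Prrx1 led with a score per kb of 8812 ± 1136 (SD, n = 3), followed by Prrx2 with 2014 ± 319.8 and Twist1 with 2012 ± 145.2, which did not differ beyond their spread. Zeb2 had 656.9 ± 164.5 and Twist2 369.7 ± 53.63. Zeb1 with 163.1 ± 3.40 and Snai2 with 155.2 ± 88.4 were alike within their spread, as were Snai1 and Tbx18 at the bottom with 44.0 ± 46.3 and 43.6 ± 7.09. By 48 h the score per kb of Twist2 (121.1 ± 3.91) was below that of Snai2 (188.7 ± 18.2) and did not differ beyond the spread from that of Zeb1 (129.7 ± 19.6).

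The ratio within each pair of related factors was compared between the 3 freshly isolated and all 11 cultured libraries. This is a test of the difference itself, over 4 pairs and 364 divisions of the libraries, with a smallest possible p of 0.00549. The log2 ratio of Twist1 to Twist2 was 2.74 ± 0.113 (SD, n = 3) at 0 h and 3.76 ± 0.34 (n = 11) in culture. All cultured libraries (3.30 to 4.33) were above all 0 h libraries (2.64 to 2.87), and the difference of 1.02 had a p of 0.00549 (exact two-sided permutation test, adjusted p = 0.022). The means were 4.32, 3.83, 3.55 and 3.52 after 12, 24, 36 and 48 h, and the tissue ratio was 2.67, within the 0 h range.

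Zeb1 gained on Zeb2. Their log2 ratio was -2.63 ± 0.362 (SD, n = 3) at 0 h and -1.85 ± 0.375 (n = 11) in culture (difference 0.78, exact two-sided permutation p = 0.0165, adjusted p = 0.022), and 24 h replicate 3, at -2.51, lay within the 0 h range. Leaving out any one 0 h library gave an exact permutation p of 0.0513 to 0.0769. The tissue ratio of Zeb1 to Zeb2 was -1.73, above the 0 h range and within that of the cultured libraries. The tissue ratios of Prrx1 to Prrx2 (4.31) and of Snai1 to Snai2 (-2.34) were within their 0 h ranges. The ratio of Prrx1 to Prrx2 fell from 4.35 ± 0.131 (SD, n = 3) to 3.81 ± 0.295 (n = 11), a difference of -0.55 (exact two-sided permutation p = 0.011, adjusted p = 0.022), with 1 cultured library, 24 h replicate 3 at 4.32, within the 0 h range. Without 0 h replicate 1 or 3 its exact permutation p was 0.0513. Snai1 against Snai2 did not pass, with -2.62 ± 1.13 at 0 h (SD, n = 3) and -1.62 ± 0.572 (n = 11) in culture (difference +0.996, exact two-sided permutation p = 0.0934, adjusted p = 0.0934), and without 0 h replicate 1 the difference was 0.36 (exact permutation p = 0.436).

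**Figure D3:**
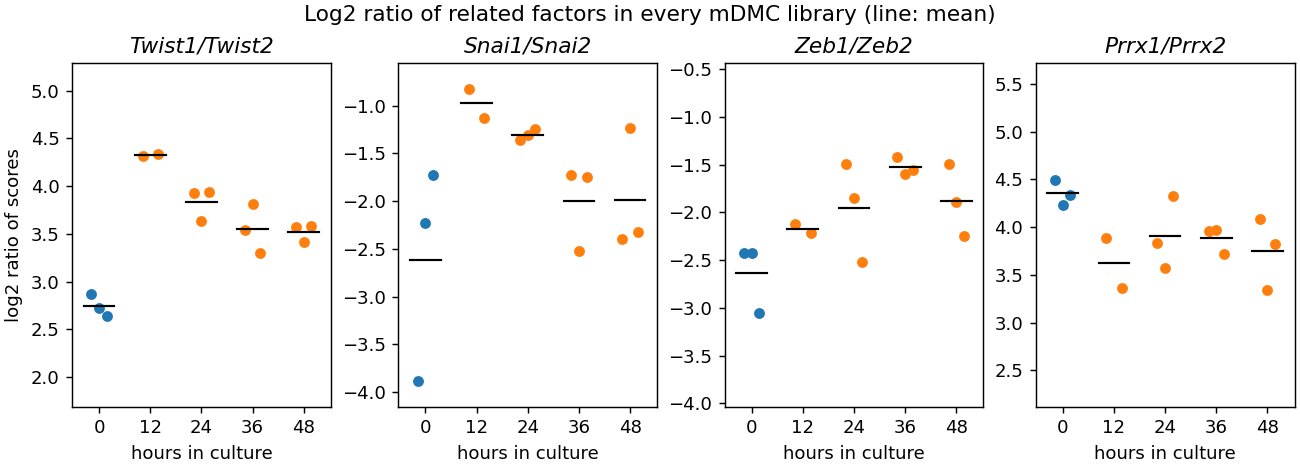
Log2 ratio of the scores of each pair of related factors in every mDMC library against hours in culture; points are libraries and lines are means. The Twist1/Twist2 ratio of every cultured library (3.30 to 4.33) lies above every 0 h library (2.64 to 2.87), whereas the other 3 pairs overlap.

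The single tissue library was set beside the 0 h libraries as a value. Twist1, Twist2 and Snai1 in tissue were within the 0 h range. Snai2, Zeb2, Prrx1 and Prrx2 were below it, by log2 differences of tissue from the 0 h mean of -0.65, -0.64, -0.46 and -0.41. Zeb1 and Tbx18 were above it, by 0.27 and 1.01. Over all 12089 transcripts, 3.8% differed by over 2-fold between tissue and the 0 h mean of log2 values, and Tbx18 was the only one of the 9 factors among them.

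The bHLH partners of Twist proteins and the genes related to them were called at 48 h in shares near those of all transcripts. Of 13 listed bHLH genes, 8 had a row, with 3 higher, 3 lower and 2 not called (median change -0.36, against 0.03 over all transcripts). Over all transcripts, 37.1% were higher and 34% lower. The 3 that fell were the E proteins, the partners with which Twist1 forms heterodimers, a grouping made after the values were seen. Tcf12 went from a mean of 10960 ± 1830 (SD, n = 3) to 3487 ± 323 (log2 change -1.64 ± 0.117, SE, limma adjusted p = 6.73e-08), Tcf4 changed by -1.01 and Tcf3, named here after its value was seen, by -0.65. Id4, one of the Id proteins that sequester E proteins, rose from 781.3 ± 236.8 to 2373 ± 387.1 (+1.64, limma adjusted p = 8.02e-06), and Id3 by 0.63, whereas Id1 (-0.26, limma adjusted p = 0.356) and Id2 (-0.47, limma adjusted p = 0.0576) did not pass. Id1, Id2 and Id3 were named after their values were seen. Scx, the bHLH factor of tendon progenitors, first fell from 159.3 to 16.5 at 12 h and then stood at 259.7, 1868 and 979.3 at 24, 36 and 48 h (+2.56 at 48 h, limma adjusted p = 0.00122). Without 0 h replicate 1, 5 genes of this list were called lower.

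Corepressors that Snail, Zeb and Twist proteins recruit were mostly lower at 48 h. This list, like the other gene lists here, was chosen with earlier results of these data known. All 19 listed genes had a row, with 14 lower, 4 higher and 1 (Rcor1, named after its value was seen) not called, and a median change of -0.48, where 34% of all transcripts were lower and 37.1% higher. Rcor2, a CoREST subunit, fell from 1113 ± 197.5 (SD, n = 3) to 127.3 ± 49.8 (-3.17, limma adjusted p = 1.47e-06) and Sin3a, the scaffold of a histone deacetylase complex, from 1918 to 699.3 (-1.44, limma adjusted p = 2.95e-06). Ajuba, a LIM protein that can bridge Snail proteins to Prmt5, rose from 1163 to 3171 (+1.42, limma adjusted p = 1.03e-06). Eed, a polycomb subunit, rose from 691.3 to 1568 (+1.18, limma adjusted p = 2.46e-07). Wtip and Prmt5, named after their values were seen, were the other 2 that rose (+0.50 and +0.31). Of these 18 called genes, 2 lower and 2 higher moved by over 2-fold.

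Among genes acting on Snail protein stability, 16 of 18 had a row, with 3 higher, 7 lower and 6 not called (median -0.31), beside 37.1% higher and 34% lower of all transcripts. Mdm2, a ubiquitin ligase best known for its action on p53, rose from 1268 ± 293.4 (SD, n = 3) to 13300 ± 1744 (+3.41, limma adjusted p = 8.83e-10) but not yet at 12 h (+0.12, limma adjusted p = 0.554). Psmd14 (+0.62) and Fbxw7 (+0.43), named after their values were seen, were the others that rose. Lower were the kinase Pak1 (-1.44, limma adjusted p = 0.000124), the F-box protein Fbxo45 (-0.99, limma adjusted p = 2.05e-07) and the deubiquitinase Usp27x (-0.92, limma adjusted p = 0.0028).

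Epithelial genes that Snail and Zeb proteins are known to repress were sparse. Of 45 listed, 21 had a row, with 5 higher, 6 lower and 10 not called at 48 h (median -1.08). Both counts are smaller shares than the 37.1% and 34% over all transcripts. At 36 h, 9 were lower and 2 higher (median -1.81), against 34% and 36% of all transcripts. At 12 h, 0 were lower and 3 higher (28.3% and 29.9% of all transcripts), and at 24 h 4 and 4 (31.8% and 35%). Among the genes lower at 48 h were Krt5, a basal keratin (-3.60, limma adjusted p = 0.032), the adhesion molecule Epcam (-3.14, limma adjusted p = 0.000752) and Trp63, a basal epithelial factor (-3.04, limma adjusted p = 0.00316). The 0 h levels of Krt5 were 4573, 422 and 467, with the high value in replicate 1, and those of Epcam were 799, 118 and 104. Leaving out that library left 4 genes lower and 7 higher, and leaving out 0 h replicate 2 or 3 left 8 lower. Pkp2, a plakophilin of desmosomes, rose from scores of 8 to 11 at 0 h to a mean of 820.3 ± 357.1 (SD, n = 3, +6.26, limma adjusted p = 2.31e-09). Grhl3, Ovol1 and Jup, named after their values were seen, were also among the higher genes, and the number higher was 2 without 0 h replicate 2 or 3 and 3 without 48 h replicate 3. Cdh1, which encodes E-cadherin and was also named so, did not pass (-1.11, limma adjusted p = 0.326).

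Mesenchymal markers often taken as readouts of an EMT were called in both directions. Of 30 listed, 29 had a row, with 13 higher, 8 lower and 8 not called at 48 h (median 0.16), near the 37.1% higher and 34% lower of all transcripts. Tagln, an actin-binding protein, rose from 505.7 ± 34.1 (SD, n = 3) to the ceiling of 127101 in all cultured libraries, so its change of +7.97 (limma adjusted p = 6.5e-15) is limited by the scale. Lox, a collagen crosslinking enzyme, changed by +3.88 (limma adjusted p = 1.9e-05), with a 48 h library at the same ceiling. Lum, a small proteoglycan, fell from 11450 ± 3187 to 749 ± 136.5 (-3.91, limma adjusted p = 7.28e-09).

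Other transcription factors of mesenchyme were mostly lower. Of 48 listed, 41 had a row, with 28 lower, 5 higher and 8 not called at 48 h (median -0.78), against 34% lower and 37.1% higher of all transcripts. Tbx22, a palate factor (-5.17, limma adjusted p = 0.00621), the somite factor Meox1 (-4.10, limma adjusted p = 4.88e-06) and the nuclear factor I gene Nfia (-2.80, limma adjusted p = 1.04e-05) fell. A 48 h library listed Tbx22 at 0, so the size of its change depends on the pseudocount. Foxs1, a forkhead factor, rose from 6.67 ± 1.16 (SD, n = 3) to 278.3 ± 143.8 (+5.02, limma adjusted p = 1.47e-07). Hmga2, Foxp1, Ets1 and Meox2, named after their values were seen, were the other 4 that rose. At 12 h, 14 were lower and 5 higher in this list, against 28.3% and 29.9% of all transcripts.

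**Figure D4:**
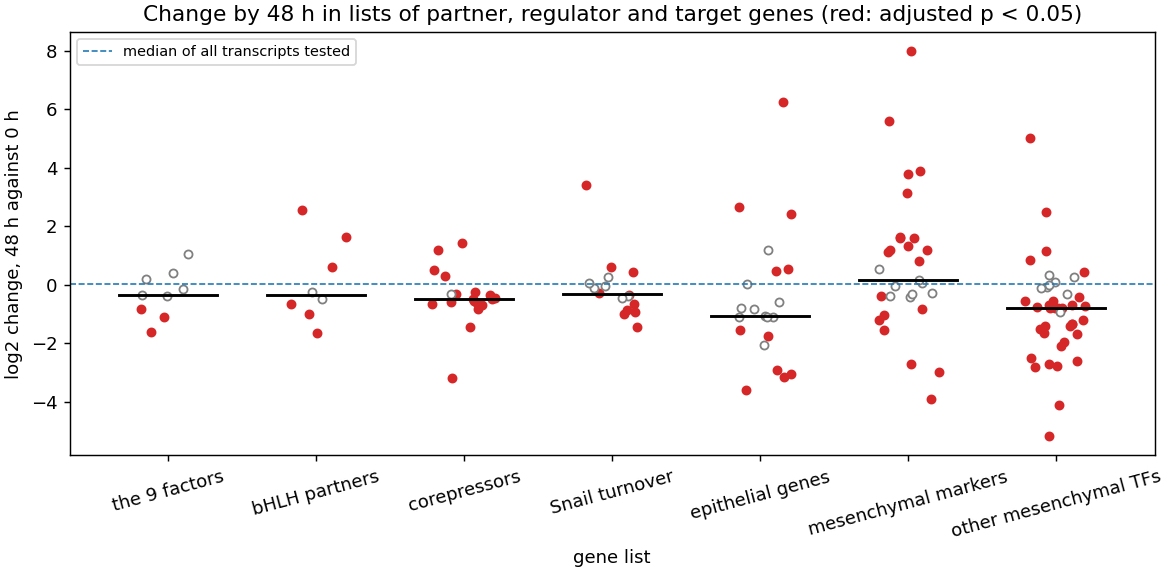
Log2 change from 0 h to 48 h of each gene in the 9 factors and 6 related lists; red points have an adjusted p below 0.05, open points do not, black lines are list medians and the dashed line is the median of all transcripts tested. The corepressors (14 of 19 lower) and other mesenchymal transcription factors (28 of 41 lower) lie mostly below the dashed line, and the mesenchymal markers spread to both sides.

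The transcripts with the profile most like that of each factor were taken by the root mean square difference of centred log2 values over all 15 libraries, as a description. For Twist1 they were 2610507B11Rik (0.078), Ppp3ca (0.083) and Neto2 (0.084). Twist2 had Gabra4 (0.133), Tctn3 (0.145) and its partner gene Tcf12 (0.18). Nearest to Zeb2 were Cbfa2t2 (0.117), Mvb12b (0.142) and Gtf2ird1 (0.149), and to Zeb1 Slc44a2 (0.143), Armcx3 (0.154) and Kansl1l (0.166).

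Snai1, whose own SD over the libraries was 1.2 on the log2 scale against 0.303 for Zeb1, had Tgfb1 (0.512), which encodes a cytokine that can induce EMT, the unnamed transcript ENSMUST00000177539 (0.531) and Tead1 (0.555). The difference measure grows with that spread. Snai2 had ENSMUST00000076410 (0.19), Aff2 (0.205) and Arhgap17 (0.224). The list for Prrx1 was Ncl (0.165), Bend3 (0.204) and Pknox1 (0.204), that for Prrx2 was Pelo (0.144), Efnb2 (0.159) and Grk6 (0.17), and that for Tbx18 was Lipa (0.268), Rab30 (0.271) and Rnaset2a (0.271). Among the factors themselves, Twist1 and Zeb2 were the closest pair (0.27), followed by Zeb1 and Tbx18 (0.303) and Snai2 and Prrx2 (0.33), and Twist2 and Snai1 were the farthest apart (1.70).

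All 9 rows are protein-coding transcripts, with positions on GRCm38. Twist1 (ENSMUST00000049089) is at chr12:33957671-33959829 with 2 exons and Twist2 (ENSMUST00000007949) at chr1:91801461-91848028 with 2. Snai1 (ENSMUST00000052631) is at chr2:167538195-167542814 and Snai2 (ENSMUST00000023356) at chr16:14705852-14709385, with 3 exons each. Zeb1 (ENSMUST00000025081) is at chr18:5591864-5775467 with 8 exons, and Zeb2 (ENSMUST00000176438) at chr2:44983632-45117395 with 11. Prrx1 (ENSMUST00000075805) spans chr1:163245119-163313672 with 5 exons, Prrx2 (ENSMUST00000113592) chr2:30834972-30881222 with 4, and Tbx18 (ENSMUST00000034991) chr9:87702800-87731260 with 8. A single transcript stands for each gene, so shifts between isoforms of a gene cannot be seen.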

How the data were processed

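RNA-seq was analysed in 15 libraries of total RNA, grouped by the time in the sample labels. The authors trimmed the reads, aligned them with bowtie to the mouse transcriptome (mm10, Ensembl annotation), estimated expression with RSEM (1.1.21 in the submitters' processing notes) and used DESeq2 for their own calls. The deposited table holds a whole-number expression score for 12089 transcripts. Its file label names cpm, but the totals are too large for that unit and each library has nearly the same set of values, by a step not given in the sources used here. Differences in total RNA cannot be seen, and the depth, and so counting error, is unknown.

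Of the transcripts, 11973 matched 11960 genes in a GRCm38 annotation and 116 did not match. The scores of the 14 mDMC libraries, as log2(score + 1), entered a limma fit (version 3.58.1, R 4.3.3) of the group mean at each time, with trended eBayes, over the 12079 transcripts that reached 1 ppm of the total in 2 or more libraries. Calls used an adjusted p below 0.05. The authors' rule of p below 0.05 with a fold above 2 was an alternative. Ratios were compared with exact two-sided permutation tests in scipy 1.17.1. The fit was tested on simulated data. A count test was not used because the table holds no counts.

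The 9 factors and the gene lists were chosen with earlier results of these data known. The genes named are the 9 factors, up to 4 genes per list with the largest change at 48 h among those called without overlap between 0 and 48 h, and the 3 transcripts most like each factor. Others named in the text were chosen after their values were seen. Some listed genes are not reported here by name. Promoter windows of 250 bases are from RefSeq (GRCm38.p6). No window was available for Snai2 or Zeb1. Replicate numbers were taken to pair libraries where every same-numbered pair of deviations from the group means had a correlation over 0.1. This held for 24 with 36 h (0.127 to 0.165) and 24 with 48 h (0.201 to 0.318) and for no other comparison. Alternatives were pseudocounts of 0.1 and 10, no filter, 1 ppm in all 14 libraries, median-of-ratios scaling, a fit of the compared times, a replicate block, eBayes without a trend or robust, and each library left out.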

Additional observations from a re-analysis of the deposited data

Results flagged for a closer look

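The tissue library, which entered no test, held a Zeb1 score of 1142, above the highest of the 14 mDMC libraries (968, at 0 h). Its Tbx18 score was 409, against 241 in the highest mDMC library. Both are listed because a value in a library outside the comparisons exceeded every library within them, as 11.8% of all 12089 transcripts did. With a single tissue library neither difference could be tested, and the cell isolation, the makeup of the tissue and the library itself cannot be told apart.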

How the results depend on the processing

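Alternatives changed the counts of factors called more than the calls of Twist1, Twist2 and Zeb2. These 3 were called lower at 24, 36 and 48 h under the 23 alternatives that kept the adjusted p below 0.05 as the rule, and Twist2 and Zeb2 also at 12 h (Twist1 in 22 of 23). Under the rule of an unadjusted p with a fold above 2, Twist1 was called at none of these times and Zeb2 not at 12 h. Of the recomputed counts and ratios, 436 kept their call or stayed within 1.5 times, 44 counts moved further, and, in the same direction, 7 ratio differences lost and 1 gained a p below 0.05. The cause was not tested.

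With a fit of only the compared times, factors higher were 1 at 12 h and 0 at 24 h, factors lower were 3 at 24 h, 6 at 36 h and 5 at 48 h, 2 were lower from 24 to 36 h, and epithelial genes higher were 2. With the replicate block, 5 factors were lower at 12 h, 2 were higher at 24 h and 2 were lower from 24 to 36 h, and Prrx1 at 12 h was +0.09 (-0.03 without it). The block also called Zeb1 lower at 12 h (-0.45, limma adjusted p = 0.0294) and 48 h (-0.34, limma adjusted p = 0.0446), and Tbx18 at 12 h (-0.79, limma adjusted p = 0.00443). Of the comparisons in the report, that of 24 to 36 h alone met the rule for pairing by replicate number, and the labels state no pairing. With 1 ppm in all 14 libraries, 0 factors were higher at 24 h and epithelial genes were 2 higher and 2 lower, and without the eBayes trend 0 factors were higher at 24 h. With an unadjusted p below 0.05 and a fold above 2, factors lower were 1 at 12 h, 2 at 24 h and 0 from 24 to 36 h. Under that rule corepressors were 2 higher and 2 lower, Snail turnover genes 1 and 1, epithelial genes 3 higher, and other mesenchymal transcription factors 3 higher and 17 lower. With cultured libraries of 12 and 24 h alone, the ratio difference was 1.44 for Snai1/Snai2 (exact permutation p = 0.0357), 0.60 for Zeb1/Zeb2 (p = 0.107) and -0.56 for Prrx1/Prrx2 (p = 0.0714).

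Leaving out each library in turn gave 1 to 3 factors higher at 12 h, 0 to 3 higher and 3 to 5 lower at 24 h, 0 to 2 higher at 36 h and at 48 h, and 0 to 2 lower from 24 to 36 h. Bounds were 3 to 5 for bHLH partners lower and 2 to 7 for epithelial genes higher. Ratio differences lay between 0.57 and 0.89 for Zeb1/Zeb2 and between -0.61 and -0.48 for Prrx1/Prrx2. Direction turned for 6 changes from 0 h that had passed no test. Prrx1 at 12 h ranged from -0.26 to +0.21 (+0.08 without 0 h replicate 3 and +0.21 without 12 h replicate 2). Prrx1 at 24 h ranged from -0.36 to +0.22 (+0.10, +0.22 and +0.12 without 0 h replicate 3, 24 h replicate 1 and 24 h replicate 2), and Tbx18 at 48 h from -0.36 to +0.051 (without 48 h replicate 3). At 36 h, Snai1 ranged from -0.17 to +1.57, Snai2 from -0.16 to +0.51 and Prrx2 from -0.15 to +0.08.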
